A study of Mus musculus with 20 samples.

Results

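Genes of cell proliferation and DNA replication were followed through 20 bulk RNA-seq libraries of mouse intraepithelial lymphocytes, 18 of them from the small intestine and 2 titled LI. The set holds 48 genes, taken by symbol from a list of cyclins, replication factors and mitotic regulators, and all 48 were found in each of the 4 expression tables, which list 12975 genes (RFP experiment), 13766 (Bcl6), 13624 (Prdm1) and 25036 (Tcf7). They were split by the part of the cell cycle in which they act. The G1/S group has 19 genes: Ccne1, Ccne2, E2f1, Cdc6, Cdt1, Mcm2 to Mcm7, Gins2, Pcna, Tyms, Rrm1, Rrm2, Tk1, Uhrf1 and Chaf1b. The mitotic group has 27 genes: Mki67, Top2a, Ccna2, Ccnb1, Ccnb2, Cdk1, Foxm1, Plk1, Aurka, Aurkb, Birc5, Bub1, Bub1b, Mad2l1, Ttk, Cdc20, Ube2c, Cenpa, Cenpe, Cenpf, Kif11, Kif20a, Kif23, Prc1, Tpx2, Nusap1 and Ncapg. The 2 D-type cyclins, Ccnd2 and Ccnd3, were kept apart.

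The cells are TCRαβ+CD8αα+ intraepithelial lymphocytes (IELs), T cells that live between the epithelial cells of the gut and carry CD8 as an αα homodimer. In the RFP experiment, cells of unmanipulated reporter mice, whose genotype is given as Bcl6-RFP/RFP, were sorted into an RFP+CD160+ fraction and an RFP-CD160- fraction, with 3 libraries each. RFP reports the Bcl6 locus and CD160 is a surface receptor, so both genes were used by the sort. In 3 further experiments the whole CD8αα+ αβ population was taken from Bcl6fl/fl Cd8cre, Prdm1fl/fl Cd8cre or Tcf7fl/fl Cd8cre mice and from littermates of genotype Bcl6fl/fl, Prdm1fl/fl or Tcf7fl/fl, with 2 libraries per genotype. Bcl6 and Prdm1 (BLIMP1) encode transcriptional repressors and Tcf7 encodes the transcription factor TCF1. Every deleted genotype carries Cd8cre and no littermate does, so an effect of the Cre recombinase itself and of the deletion cannot be told apart, and the labels do not describe the Cre construct. Another pair of libraries, titled LI, has the same reporter genotype and a small-intestine label but no stated sort gate. The letters LI are not explained, so the tissue and gate of these libraries are uncertain. They belong to no group, and each LI library is given by its own value, without a test. Age, sex and any pooling of mice are not given in the labels. Nothing says whether replicates are separate animals, so p-values measure the spread between these libraries only.

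A dividing cell passes from G1 into S phase, copies its DNA, and then segregates it in mitosis. D-type cyclins with CDK4 or CDK6, followed by cyclin E with CDK2, phosphorylate the RB family and release E2F factors, which drive genes for origin licensing, nucleotide supply and replication. Later, cyclin A, cyclin B and CDK1 take over, and the B-MYB and FOXM1 programme drives genes of the spindle, kinetochore and cytokinesis. Most IELs of the adult gut are long-lived resident cells that divide slowly.

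Mitotic and G1/S genes are known to use different promoter elements, so the promoters were examined for 3 of them, and 5 promoters are shown as examples of the 2 kinds. The elements were the cell cycle homology region (CHR, TTTGAA), which is bound by the DREAM and MuvB complexes, the CCAAT box (CCAAT), which is bound by NF-Y, and an E2F site, searched as any of TTTCCCGC, TTTGGCGC, TTTCGCGC and TTTGCCGC. Both strands were searched, from 250 bases before to 50 bases after each start, in promoters from RefSeq on GRCm38.p6. An entry was matched for 39 of the 48 genes. Each sequence below holds the 250 bases before the start, 5′ to 3′ on the strand of the gene, with the matched words in capitals. A word on the opposite strand appears as its reverse complement, and E2F words may overlap each other.
Mki67: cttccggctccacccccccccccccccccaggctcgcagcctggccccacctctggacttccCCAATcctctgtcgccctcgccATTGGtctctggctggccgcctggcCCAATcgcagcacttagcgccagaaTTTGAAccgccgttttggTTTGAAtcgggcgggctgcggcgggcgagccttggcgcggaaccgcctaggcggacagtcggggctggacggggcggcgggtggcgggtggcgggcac
Top2a: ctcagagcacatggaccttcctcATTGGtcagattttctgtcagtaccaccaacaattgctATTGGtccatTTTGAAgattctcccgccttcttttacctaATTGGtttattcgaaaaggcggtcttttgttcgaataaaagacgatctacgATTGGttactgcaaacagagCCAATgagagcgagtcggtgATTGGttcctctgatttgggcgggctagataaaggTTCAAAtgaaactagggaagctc
Cdk1: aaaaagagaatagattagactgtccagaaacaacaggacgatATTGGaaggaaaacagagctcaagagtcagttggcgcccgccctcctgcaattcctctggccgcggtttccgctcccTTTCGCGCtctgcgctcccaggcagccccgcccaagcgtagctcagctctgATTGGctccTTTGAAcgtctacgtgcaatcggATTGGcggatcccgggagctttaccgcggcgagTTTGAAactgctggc
Mcm5: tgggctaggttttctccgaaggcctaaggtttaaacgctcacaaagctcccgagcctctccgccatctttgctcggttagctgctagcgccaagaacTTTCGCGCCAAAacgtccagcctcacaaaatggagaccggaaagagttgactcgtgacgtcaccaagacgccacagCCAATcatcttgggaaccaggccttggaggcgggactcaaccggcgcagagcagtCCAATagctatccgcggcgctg
Mcm6: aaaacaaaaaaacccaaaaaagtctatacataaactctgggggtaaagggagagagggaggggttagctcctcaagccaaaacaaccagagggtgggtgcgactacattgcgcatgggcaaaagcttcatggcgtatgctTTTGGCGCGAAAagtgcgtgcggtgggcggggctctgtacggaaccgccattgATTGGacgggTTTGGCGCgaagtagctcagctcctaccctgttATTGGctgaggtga

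In these printed bases, the Mki67 promoter (chr7:135716380-135716629, minus strand) has 2 CHR words, beginning 116 and 98 bases before the start, with 3 CCAAT boxes upstream of them and no E2F word. Top2a (chr11:99024190-99024439, minus strand) has 2 CHR words and 6 CCAAT boxes. Cdk1 (chr10:69352913-69353162, minus strand) has 2 CHR words, 3 CCAAT boxes and 1 E2F word. The 2 printed promoters of replicative helicase subunits have the other pattern: Mcm5 (chr8:75109259-75109508, plus strand) has 2 overlapping E2F words at 153 and 149 bases before the start, and Mcm6 (chr1:128359706-128359955, minus strand) has 3 E2F words, with 2 CCAAT boxes in each and no CHR. Across the mitotic genes with an entry, 16 of 22 (72.7%) held a CHR and 2 of 22 (9.09%) an E2F word. Across the G1/S genes, 1 of 16 (6.25%, Mcm2) held a CHR and 7 of 16 (43.8%) an E2F word, namely Cdc6, Cdt1, Mcm3, Mcm5, Mcm6, Mcm7 and Uhrf1. A CCAAT box was found in 19 of 22 mitotic and 9 of 16 G1/S genes. Over all 27025 genes with a promoter entry, the shares were 20.2% for a CHR, 2.61% for an E2F word and 41.1% for a CCAAT box. A match describes the letters in this window and is not evidence of binding in these cells.

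**Figure D1:**
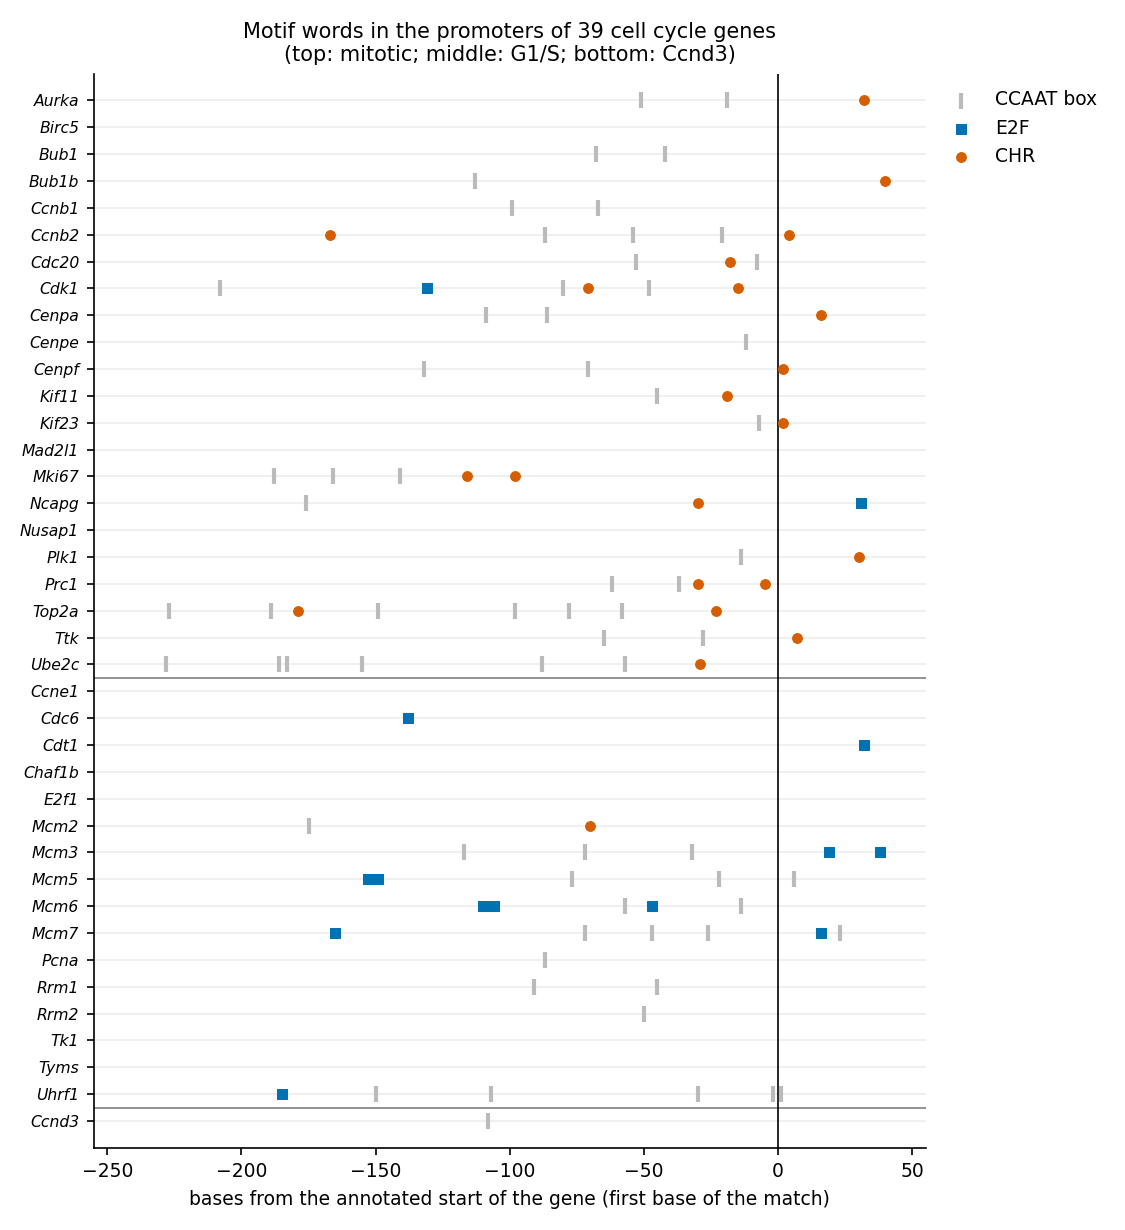
Positions of CHR, CCAAT and E2F words (both strands) in the RefSeq promoters of the mitotic and G1/S genes and Ccnd3, plotted as distance from the start in bases; each row is 1 gene, and a gene with 2 promoter entries has the words of both on its row. CHR words are found in 16 of 22 mitotic genes and in 1 of 16 G1/S genes, E2F words in 2 of 22 and 7 of 16.

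Reads recovered from the values, to the nearest 1000, numbered 14537000 to 17368000 per library in the RFP fractions, 30027000 and 22528000 in LI 1 and 2, 22126000 to 23004000 (Bcl6), 30139000 to 38386000 (Prdm1) and 40975000 to 48206000 (Tcf7). Bcl6, used by the sort, read 13.7 to 18.0 FPKM (fragments scaled to gene length and library depth) in RFP+CD160+ and 3.30 to 3.59 in RFP-CD160- libraries. In the deletion experiments, Prdm1 read 6092 and 5117 units of size-factor-scaled signal in littermates and 640 and 362 after deletion, and Tcf7 read 15430 and 15606 against 7757 and 7993. Bcl6 was near the floor in both genotypes of its own experiment, at 0.772 and 0.735 against 0.550 and 0.638 FPKM, so it gives little check of those labels. The IEL markers Cd8a, Itgae and Cd3e were abundant in both RFP fractions, at means of 574, 351 and 167 FPKM in RFP+CD160+ and 913, 564 and 234 in RFP-CD160- libraries, while Cd8b1 was near 1 FPKM. Of 7 IEL markers tested, 4 were called lower in RFP+CD160+ (Cd3e, Cd3g, Cd8a and Itgae); Ptprc (141 against 130 FPKM) and Cd3d (198 against 187) read the other way and were not called. Their part in the results below was not tested. Several of the 48 genes share exons with a gene on the opposite strand, most of all Gins2 (67.3% of its exon length, with Gse1), Kif20a (29.3%, Cdc23) and Ube2c (22.8%, Tnnc2). The strand setting of the counting is not given in the sources used here, so the values of those genes are uncertain.

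In the RFP experiment 25 of the 48 genes were called lower in the RFP+CD160+ fraction and 0 higher, by limma at an adjusted p below 0.05 with no filter on low values, where 16.9% of all 12970 genes were called lower and 14.1% higher. They were 15 of 27 mitotic genes, 9 of 19 G1/S genes and 1 of the 2 D-type cyclins. The adjusted p-values printed for single genes come from the fit with an expression filter (at least 1 FPKM in 3 libraries), which called 27 of 40 tested genes lower (17 of 20 mitotic, 9 of 18 G1/S and 1 of 2 D-type cyclins) and 0 higher, beside 21.6% of all 9717 genes tested lower and 16.4% higher. Some genes, such as Cdk1, Birc5, Foxm1 and Cdc6, reached that filter only through the RFP-CD160- libraries, so the filtered counts favour a difference. Over all 48 genes without a filter, the median log2 difference (RFP+CD160+ minus RFP-CD160-, on log2 of FPKM plus 1) was -0.68 for the mitotic group, negative in 27 of 27, and -0.32 for the G1/S group, negative in 17 of 19, beside -0.01 over all genes of that fit. The difference between the 2 medians was not tested. In bulk RNA, fewer cycling cells and less RNA per cycling cell cannot be told apart.

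Mki67 encodes Ki-67, a protein that coats mitotic chromosomes and is the standard mark of cycling cells; the gene lies at chr7:135689784-135716361. Its level was 2.06, 1.70 and 2.36 FPKM in RFP+CD160+ libraries 1 to 3 and 14.2, 6.46 and 7.52 FPKM in RFP-CD160- libraries 1 to 3. Every RFP+CD160+ library lay below every RFP-CD160- library, and RFP-CD160- library 1 stood above the other two. The means were 2.04 ± 0.33 and 9.40 ± 4.2 FPKM (SD, n = 3), a 4.61-fold difference, and the log2 difference of -1.71 (SE 0.24) had a limma adjusted p of 0.00095. Top2a, the topoisomerase that untangles replicated chromosomes (chr11:98992943-99024189), read 2.13, 1.65 and 2.50 FPKM against 10.6, 5.19 and 5.23. The fractions were again apart, by -1.31 on the log2 scale (SE 0.24, limma adjusted p 0.0033). Cdk1, the kinase that triggers mitosis (chr10:69335146-69352938), read 0.582, 0.390 and 0.540 against 2.66, 1.25 and 1.97 FPKM. Its log2 difference was -0.95 (SE 0.17, limma adjusted p 0.0035), with no overlap.

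Ccnb1 and Ccnb2 encode B-type cyclins, the partners of CDK1. Ccnb2 read 1.48, 0.989 and 1.55 FPKM in RFP+CD160+ and 10.8, 3.37 and 4.02 in RFP-CD160- libraries (log2 difference -1.45, limma adjusted p 0.010). Ccnb1 did not reach the filter: it read 0.238, 0.131 and 0.309 against 1.78, 0.654 and 0.519 FPKM. These values stand for only 15, 8 and 22 reads against 124, 46 and 38 reads, and the fractions did not overlap. Foxm1, the forkhead factor that drives late cell cycle genes, read 0.685, 0.849 and 0.987 against 2.88, 1.57 and 2.05 FPKM. It was lower in the RFP+CD160+ fraction by -0.77 on the log2 scale (SE 0.15, limma adjusted p 0.0058). Kif11, the motor that pushes spindle poles apart, read 1.04, 0.701 and 1.40 against 6.56, 2.94 and 2.76 FPKM (log2 difference -1.25, limma adjusted p 0.0069). Birc5 (survivin), a subunit of the chromosomal passenger complex, read 0.648, 0.445 and 0.591 against 3.61, 1.41 and 1.79 FPKM (log2 difference -1.01, limma adjusted p 0.0084). Both were apart between the fractions.

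Plk1, a kinase of mitotic entry and centrosome maturation, was an exception. It read 1.03, 0.813 and 1.67 FPKM against 4.13, 1.20 and 1.62, so the fractions overlapped, and the log2 difference of -0.53 (SE 0.30) had a limma adjusted p of 0.20. Aurka, the kinase of the spindle poles, and Cdc20, the activator of the anaphase-promoting complex, were the other tested mitotic genes not called, at log2 differences of -0.33 and -0.44. Cenpa, the histone variant of centromeres, was the most abundant mitotic gene per length, at 21.3, 15.2 and 29.4 FPKM against 56.5, 42.1 and 36.6, and was called lower (log2 difference -1.03, limma adjusted p 0.0089). In the filtered fit, the other called mitotic genes were Ncapg, Tpx2, Bub1b, Nusap1, Aurkb, Ube2c, Prc1, Ccna2 and Mad2l1, with log2 differences between -0.996 (Ccna2) and -0.31 (Mad2l1). Some of these calls depended on the processing: Mad2l1 was called in 5 of 13 alternatives, Ccna2 in 8, Aurkb and Ube2c in 9 each, Nusap1 in 10, and Prc1 in 9 of 12. Without a filter, Ccna2, Ube2c and Mad2l1 were not called (limma adjusted p 0.057, 0.052 and 0.053). Ttk, below the filter, was called lower there (log2 difference -0.51, limma adjusted p 0.044). Bub1, Ccnb1, Cenpe, Cenpf, Kif20a and Kif23, also below the filter, were not called, at -0.66 (Cenpe) to -0.40 (Kif20a). Of the 27 mitotic genes, 22 had non-overlapping fractions with RFP+CD160+ lower, as did 12 of 19 G1/S genes and Ccnd2. No gene of the set was apart in the opposite direction. These counts include genes below the filter. Over the 9717 genes that reached the filter, 28.5% were apart with RFP+CD160+ lower and 23.4% with it higher.

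**Figure D2:**
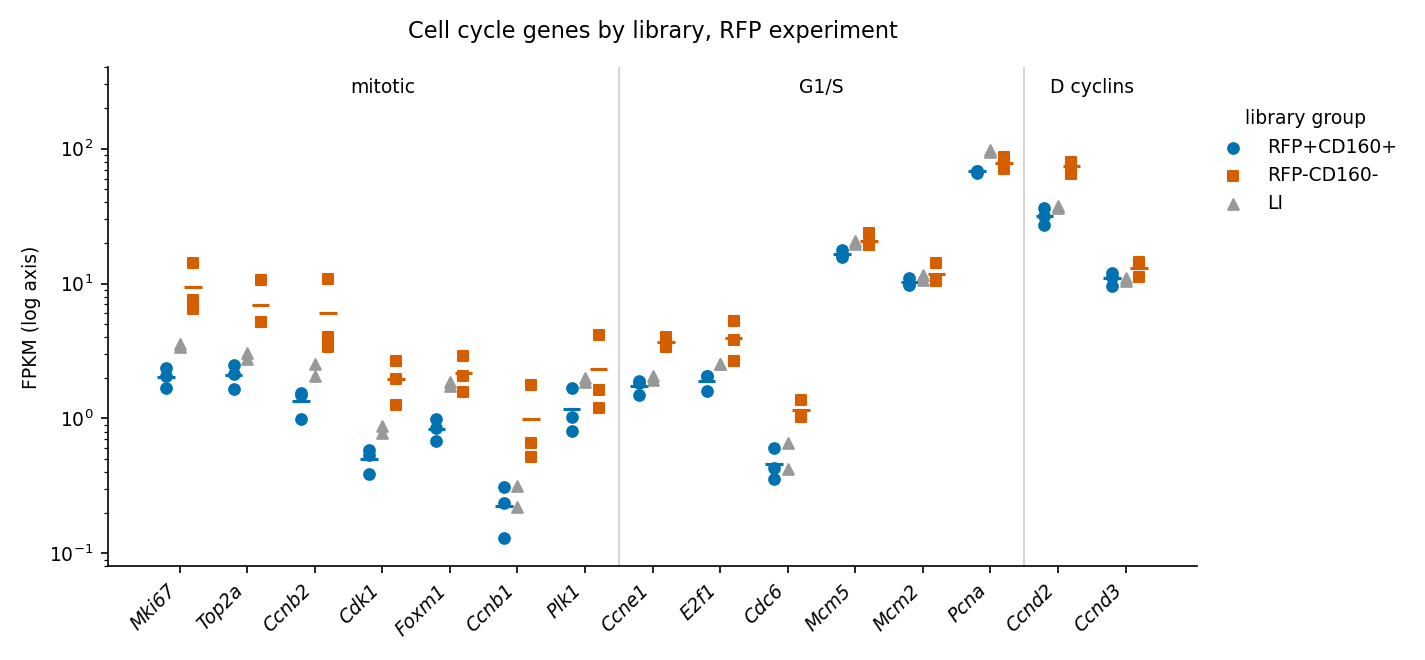
FPKM on a log axis for members of the mitotic, G1/S and D-type cyclin groups in each library of the RFP experiment (points are libraries of RFP+CD160+, RFP-CD160- and LI; bars are means of the sorted fractions). For Mki67 the RFP+CD160+ libraries lie between 1.70 and 2.36 FPKM and the RFP-CD160- libraries between 6.46 and 14.2.

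The 9 called G1/S genes, of 18 tested, were Ccne1, E2f1, Cdc6, Tyms, Chaf1b, Uhrf1, Rrm2, Mcm4 and Mcm5. Without RFP+CD160+ library 2, 5 of 18 were called lower, and with library totals rescaled 6 of 17, at a median over the tested genes of -0.16 with 4 positive. Ccne1, the cyclin E1 gene that activates CDK2 (chr7:38097984-38107534), read 1.51, 1.89 and 1.82 FPKM in RFP+CD160+ libraries and 3.41, 4.01 and 3.68 in RFP-CD160- libraries. The fractions were well apart, with means of 1.74 ± 0.20 and 3.70 ± 0.30 FPKM (SD, n = 3), and the log2 difference was -0.78 (SE 0.09, limma adjusted p 0.00036). Here RFP-CD160- library 1 was the lowest of its fraction, unlike in the other G1/S genes. E2f1, the transcription factor that activates this group, read 2.05, 1.59 and 2.06 against 5.32, 3.79 and 2.67 FPKM. The fractions did not overlap (log2 difference -0.73, SE 0.18, limma adjusted p 0.015). Cdc6, which loads the MCM helicase on origins, read 0.600, 0.355 and 0.430 against 1.38, 1.02 and 1.06 FPKM (log2 difference -0.56, limma adjusted p 0.0072).

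Of the genes for nucleotide supply, Tyms and Rrm2 were called lower, and Rrm1 and Tk1 were not called. Tyms, thymidylate synthase, read 1.46, 1.29 and 1.28 against 2.50, 2.24 and 2.02 FPKM (log2 difference -0.47, limma adjusted p 0.0049). Chaf1b, a subunit of the CAF-1 histone chaperone, read 1.48, 1.75 and 2.05 against 3.78, 2.73 and 3.04 FPKM (log2 difference -0.60, limma adjusted p 0.0057). Uhrf1, which carries DNA methylation through replication, read 3.29, 3.05 and 2.72 against 8.33, 5.11 and 4.99 FPKM (log2 difference -0.80, limma adjusted p 0.0064). None of these 3 genes overlapped between the fractions. Rrm2, the regulated subunit of ribonucleotide reductase, had a log2 difference of -0.68 (limma adjusted p 0.020).

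The MCM helicase subunits and the sliding clamp were far more abundant per length. Mcm4 (chr16:15623897-15637400) read 28.9, 27.1 and 31.4 FPKM against 43.7, 36.3 and 34.3 and was called lower, by -0.37 on the log2 scale (limma adjusted p 0.017). Mcm5 read 17.6, 16.2 and 15.7 against 23.6, 19.4 and 19.4 FPKM and was called lower, by -0.32 (limma adjusted p 0.020). These 2 calls were lost when library totals were rescaled, with limma adjusted p-values of 0.058 and 0.11. Mcm2 read 10.9, 9.89 and 9.74 against 14.3, 10.6 and 10.4 FPKM. Its fractions overlapped and it was not called (log2 difference -0.18, limma adjusted p 0.25). Pcna, the clamp that holds DNA polymerases on the template, read 68.6, 66.1 and 68.7 against 86.1, 70.9 and 76.6 FPKM. The fractions did not overlap, yet the log2 difference of -0.19 had a limma adjusted p of 0.068. Mcm3, Mcm6, Mcm7, Cdt1, Rrm1, Tk1 and Ccne2 were not called either, with log2 differences from -0.35 (Mcm3) to 0.18 (Ccne2). Gins2 was below the filter and was not called without it (log2 difference -0.11, limma adjusted p 0.26).

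Of the D-type cyclins, which link growth signals to CDK4 and CDK6, Ccnd2 was called lower and Ccnd3 was not called. Ccnd2 (chr6:127125162-127152193) read 31.6, 36.2 and 27.2 FPKM in RFP+CD160+ and 65.3, 77.7 and 79.8 in RFP-CD160- libraries. The gap between the fractions was wide, with means of 31.7 ± 4.5 and 74.3 ± 7.8 FPKM (SD, n = 3), and the log2 difference was -1.21 (SE 0.11, limma adjusted p 0.00011). Ccnd3 (chr17:47505051-47599691) read 11.3, 11.9 and 9.62 against 11.1, 14.4 and 13.9 FPKM. Its fractions overlapped through RFP-CD160- library 1 (log2 difference -0.24, limma adjusted p 0.11), and without that library it was called lower (-0.35, limma adjusted p 0.021).

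The 2 LI libraries lay between the sorted fractions for 17 of the 48 genes. Both were above every RFP+CD160+ library for 20 of 27 mitotic genes and below every RFP-CD160- library for 19 of 27. The shares of all genes in these positions were not computed, so the counts are descriptions only. Mki67 read 3.59 and 3.37 FPKM in LI 1 and LI 2, Top2a read 2.77 and 3.07, Cdk1 read 0.776 and 0.882, and Ccnb2 read 2.07 and 2.55. They met both conditions for 12 of 27 mitotic genes and 4 of 19 G1/S genes, and for Ccnd2 they read 37.6 and 36.3 FPKM. For Foxm1 they read 1.87 and 1.73, inside the RFP-CD160- range. Pcna (97.1 and 94.8 FPKM), Cdt1 and Mcm7 were above every RFP-CD160- library, and Tyms (1.27 and 1.24 FPKM) and Mcm6 were below every RFP+CD160+ library. The remaining genes that the rule follows in every experiment read 0.316 and 0.221 FPKM (Ccnb1), 1.86 and 2.00 (Plk1), 11.6 and 10.6 (Mcm2), 1.93 and 2.05 (Ccne1), 2.52 in both (E2f1), and 11.1 and 10.5 (Ccnd3).

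In summed FPKM, both phase groups separated the sorted fractions. The mitotic sum without Cenpa was 24.6, 21.3 and 27.5 FPKM in RFP+CD160+ libraries and 109.6, 45.7 and 53.1 in RFP-CD160- libraries, with LI at 38.3 and 39.1. The G1/S sum was 220.4, 209 and 219 FPKM against 297, 239 and 243, with LI at 264 and 260.1. The FPKM of all genes summed to 238848 to 241207 per RFP+CD160+ library and 262041 to 276608 per RFP-CD160- library. As a share of that total, the G1/S sum was 0.0922%, 0.0874% and 0.0907% against 0.107%, 0.0901% and 0.0928%, so the fractions overlapped, while the mitotic sum with Cenpa was 0.0192%, 0.0153% and 0.0236% against 0.0600%, 0.0331% and 0.0342%, without overlap. RFP-CD160- library 1 was the highest library of its fraction for 27 of 27 mitotic and 18 of 19 G1/S genes. Without it, 27 of 40 tested genes were called lower, beside 19.0% of 9821 genes, with medians over the tested genes of -0.59 (mitotic) and -0.21 (G1/S), and Mki67 differed by -1.40 (limma adjusted p 0.00013). Without RFP+CD160+ library 2, 17 of 42 were called lower, beside 17.1% of all genes tested. These fits and the rescaled fit that follows used the filter of 1 FPKM. Some genes reached it only through the RFP-CD160- libraries, so these counts and medians favour a difference. Setting every library to 1 common total moved the median of all genes by 0.14, from -0.03 to 0.12, and turned the split of all calls from 43.1% to 74.0% higher, while 21 of 37 tested genes of the set were called lower and 0 higher, beside 12.0% of all genes lower and 34.0% higher.

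**Figure D3:**
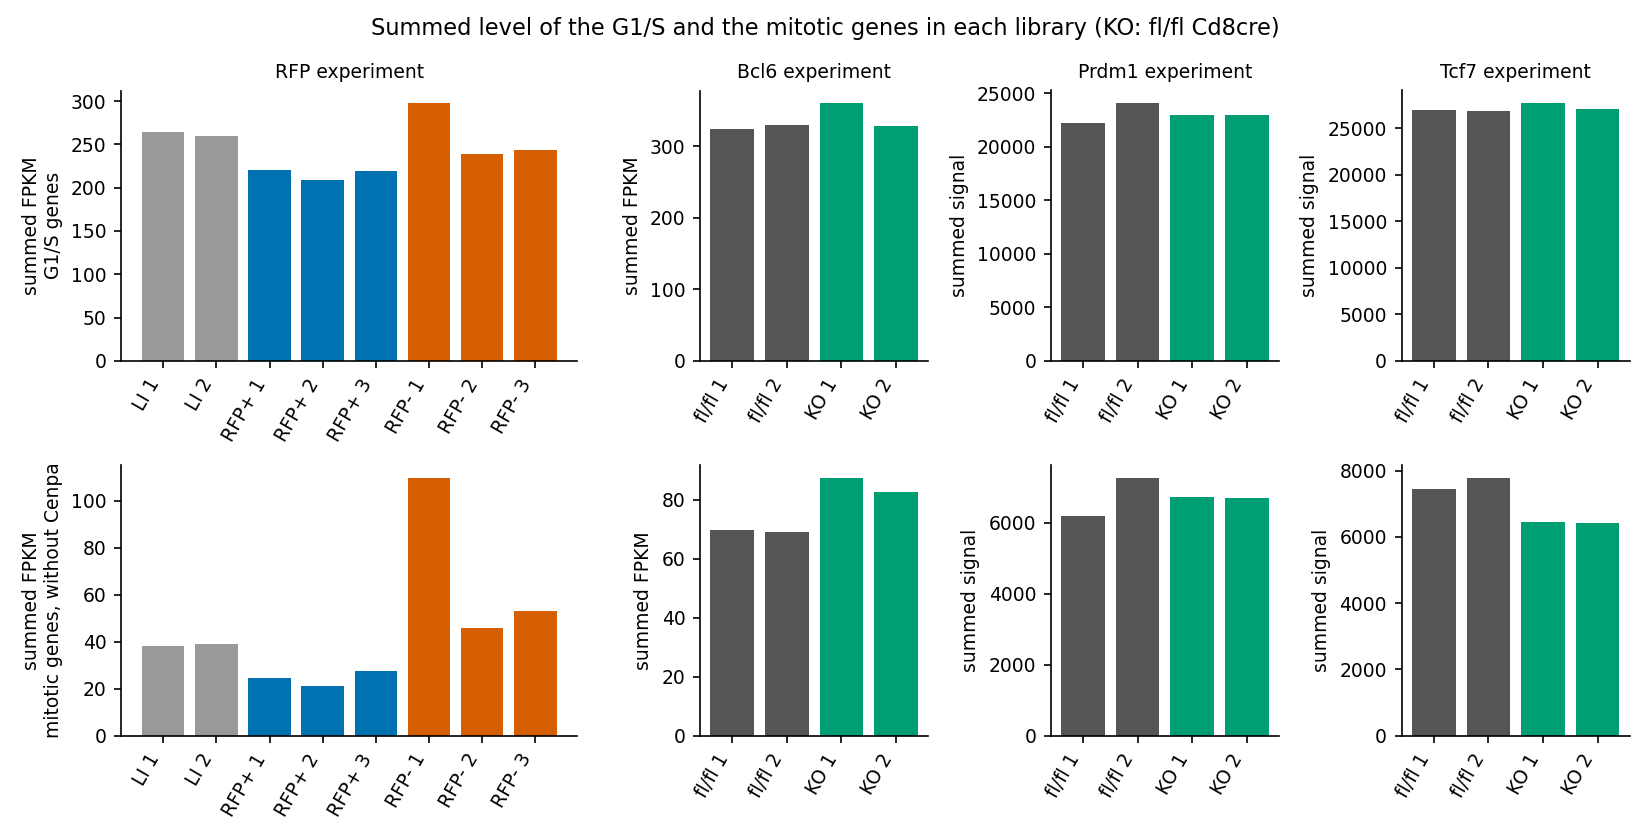
Summed level of the G1/S genes and of the mitotic genes without Cenpa in each library, by experiment (bars from 0; KO is fl/fl Cd8cre; FPKM in the RFP and Bcl6 experiments, size-factor-scaled signal in the Prdm1 and Tcf7 experiments; each panel has its own axis). The mitotic sum separates the RFP fractions (21.3 to 27.5 against 45.7 to 109.6 FPKM).

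Grouped by promoter words, and without a filter, the 17 genes with a CHR had a median log2 difference of -0.68 between the RFP fractions and were all negative. The 7 genes with an E2F word and no CHR had a median of -0.32, with 6 negative, the 15 with neither word -0.64, and the 9 without an entry -0.67. The CHR and E2F groups largely follow the division into mitotic and G1/S genes. The 15 genes with neither word and the 9 without an entry include genes of both phases. No difference between the groups was tested.

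Other genes of the cell cycle, held in lists outside the 48, were read in the filtered fit, in which 21.6% of all genes tested were lower and 16.4% higher. Some of them, such as Kif15, E2f2 and Brca1, reached that filter only through the RFP-CD160- libraries, so the filtered counts favour lower calls. Of 54 further mitotic genes listed, only 31 were tested. Counts without a filter are not given for these lists. Of further replication factors, 13 of 39 tested were called lower and 1 higher: Rpa2, a subunit of the single-strand binding protein RPA, at 20.2 ± 0.95 against 35.1 ± 0.82 FPKM, and Clspn, a fork checkpoint adaptor, at 1.99 ± 0.30 against 6.10 ± 0.65, were lower, whereas Rfc1, the large subunit of the clamp loader, was higher at 18.1 ± 0.95 against 8.86 ± 0.04 (SD, n = 3 in each). Of further mitotic genes, 19 of 31 were called lower, among them Cdca2 (1.27 ± 0.36 against 5.27 ± 0.82 FPKM), which brings protein phosphatase 1 to chromatin, and the spindle motor Kif15 (0.547 ± 0.074 against 1.89 ± 0.39). The condensin subunit Smc4 alone was called higher in that list, at 59.4 ± 0.53 against 43.0 ± 1.1 FPKM. The E2F and RB list had 2 of 16 called higher and 2 lower, with E2f5 higher (6.36 ± 0.49 against 3.16 ± 0.63) and Rbl2 (24.8 ± 1.6 against 33.5 ± 1.8) and E2f2 (0.507 ± 0.20 against 1.59 ± 0.81) lower.

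Genes that restrain or time the cycle had calls in each direction in the same filtered fit, in which 21.6% of all genes tested were lower and 16.4% higher. None of the shares of these lists was tested against that of all genes. Of the CDK inhibitors, Cdkn2c (p18INK4c) was lower at 2.60 ± 0.25 against 7.88 ± 1.8 FPKM, while Cdkn2d (p19INK4d, 25.1 ± 3.7 against 14.5 ± 1.2) and Cdkn1a (p21, 1.46 ± 0.28 against 0.774 ± 0.19) were higher, of 4 tested. Cdkn1a reached the filter of 1 FPKM only through the RFP+CD160+ libraries, so its entry into the test favours a higher call. Of genes that control CDK activity, 3 of 12 were called higher and 3 lower. Cdk4 was higher (22.1 ± 0.38 against 17.6 ± 0.39 FPKM), and Cdk6 (7.98 ± 0.69 against 10.2 ± 0.58) and the CDK1-inhibiting kinase Wee1 (3.51 ± 1.2 against 5.93 ± 0.21) were lower. In the anaphase-promoting complex list, 1 of 16 was higher (Anapc16, 12.3 ± 0.35 against 9.55 ± 0.65) and 3 lower, including Cdc27 (13.2 ± 0.15 against 16.4 ± 0.74) and the inhibitor Fbxo5 (6.85 ± 1.1 against 9.45 ± 1.0). In the checkpoint list, the damage kinase gene Atm was higher (12.7 ± 0.59 against 9.18 ± 0.40) and Brca1 lower (0.774 ± 0.12 against 1.43 ± 0.26), of 12 tested.

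Crypt epithelium also divides, so its markers are given beside these results. The sum of the 3 crypt markers in the table (of 4 listed) was 1.12, 0.395 and 1.28 FPKM in RFP+CD160+ and 1.10, 6.18 and 1.80 FPKM in RFP-CD160- libraries, with Lgr5 listed at 0 in every RFP+CD160+ library. The sum of 14 epithelial markers was 133, 113 and 107 FPKM against 106, 243 and 136. Of 11 epithelial markers tested, 10 had negative log2 differences, and the median was -0.73. Epcam (31.8 against 46.7 FPKM) and Krt18 (0.534 against 2.42) were called lower, and only Cdh1 (61.3 against 46.2) higher. Among markers of other cells, Cd79b, Cd68, Itgam and Pecam1 were called lower. Over all genes tested, 21.6% were called lower and 16.4% higher. Library 2 of the RFP-CD160- fraction had the highest epithelial and crypt sums, and library 1, highest of its fraction for the mitotic genes, had the lowest. The part of crypt or epithelial RNA in the cell cycle values of this experiment was not tested. The 6 markers of conventional T cells summed to between 1.13 and 1.94 FPKM in the 2 fractions.

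After deletion of Bcl6 no gene of the set passed the test. Of 43 genes tested, 0 were called by limma in either direction, beside 0.0313% of 9573 genes called higher and 0.387% lower. At an unadjusted limma p below 0.05, 5 were higher and 1 lower, beside 229 higher and 330 lower of the 9573 genes. Read without a filter, the mitotic group had a median log2 difference (Bcl6fl/fl Cd8cre minus Bcl6fl/fl) of 0.20, positive in 23 of 27, and the G1/S group 0.09, positive in 10 of 19, beside -0.01 over all genes. Both deleted libraries were above both littermates for 16 of 27 mitotic and 6 of 19 G1/S genes and for Ccnd2, and below them for 3 of 48. These counts include genes below the filter. Over the 9573 genes that reached the filter, the shares were 19.0% above and 14.0% below.

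Mki67 read 1.67 and 1.54 FPKM in Bcl6fl/fl and 1.88 and 2.69 in Bcl6fl/fl Cd8cre libraries, without overlap, and the log2 difference of 0.32 (SE 0.20) had a limma adjusted p of 0.95. Top2a read 3.71 and 3.81 against 5.20 and 6.49 FPKM, the smallest unadjusted p among mitotic genes that reached the filter (log2 difference 0.52, limma adjusted p 0.72). Ccnb2 (8.46 and 9.15 against 14.8 and 11.1 FPKM) and Bub1b, a spindle checkpoint kinase (2.84 and 3.53 against 4.57 and 5.25), had log2 differences of 0.50 each. All 4 genes were higher in both deleted libraries, by less than the test requires. Foxm1 was below the filter, at 0.249 and 0.236 against 0.547 and 0.727 FPKM, which is 33 and 30 against 71 and 95 reads. Cdk1 read 1.79 and 1.58 against 2.15 and 2.03 FPKM, and Ccnb1 0.917 and 1.45 against 1.60 and 1.77, both without overlap. Plk1 overlapped, at 2.91 and 4.30 against 4.98 and 4.07 FPKM. Aurka went the other way, at 5.14 and 5.89 against 4.35 and 2.87 FPKM.

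The G1/S genes of the Bcl6 experiment showed no common direction. Mcm2 read 15.8 and 19.2 FPKM in littermates and 19.8 and 13.5 after deletion, and Pcna 54.2 and 48.7 against 48.6 and 51.4, with overlap in both. E2f1 read 3.71 and 2.68 against 3.18 and 2.35 FPKM, also overlapping, and Ccne1 6.12 and 6.20 against 5.85 and 5.31, without overlap. The 3 G1/S genes with the smallest p were Tk1, thymidine kinase (1.82 and 2.52 against 3.64 and 3.07 FPKM, limma adjusted p 0.85), Cdc6 (2.00 and 1.22 against 2.38 and 2.18) and Tyms (5.85 and 5.07 against 6.21 and 7.47). Each of these had both deleted libraries above both littermates.

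Ccnd2 read 105 and 117 FPKM in Bcl6fl/fl and 190.1 and 183 in Bcl6fl/fl Cd8cre libraries. The genotypes were apart, at means of 111 ± 8.4 and 186 ± 5.3 FPKM (SD, n = 2), and the log2 difference was 0.74 (SE 0.16), but the limma adjusted p was 0.14. It was called higher when deleted library 1 (limma adjusted p 3e-05) or deleted library 2 (9.3e-06) was left out, and its adjusted p ranged from 9.3e-06 to 1 over all alternatives. Without deleted library 1, Ccne2 and Top2a were also called higher and Aurka lower, where 730 genes were called higher and 832 lower over the whole table; without deleted library 2, Ccnb2 was called beside Ccnd2. Ccnd3 read 30.9 and 31.4 against 30.3 and 23.1 FPKM (log2 difference -0.23, limma adjusted p 0.95). Of the other cell cycle lists, the only gene called was Cdkn1a, the CDK inhibitor p21, which fell from 15.2 ± 3.0 to 4.53 ± 0.34 FPKM (SD, n = 2; log2 difference -1.54, limma adjusted p 0.011). The mitotic sum without Cenpa was 69.7 and 69.2 FPKM in littermates and 87.3 and 82.5 after deletion, beside crypt marker sums of 4.56 and 4.01 against 5.25 and 5.57. The epithelial markers Lyz1 (-2.38, limma adjusted p 0.0016) and Itln1 (-1.85, 0.0099) were called lower after deletion, and the sum of epithelial markers was 305 and 352 FPKM in littermates and 308 and 255 after deletion. The sum of myeloid markers was 54.6 FPKM in deleted library 2 and 16.9 to 21.4 in the other 3 libraries. The part of RNA from these cells in the cell cycle values was not tested.

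**Figure D4:**
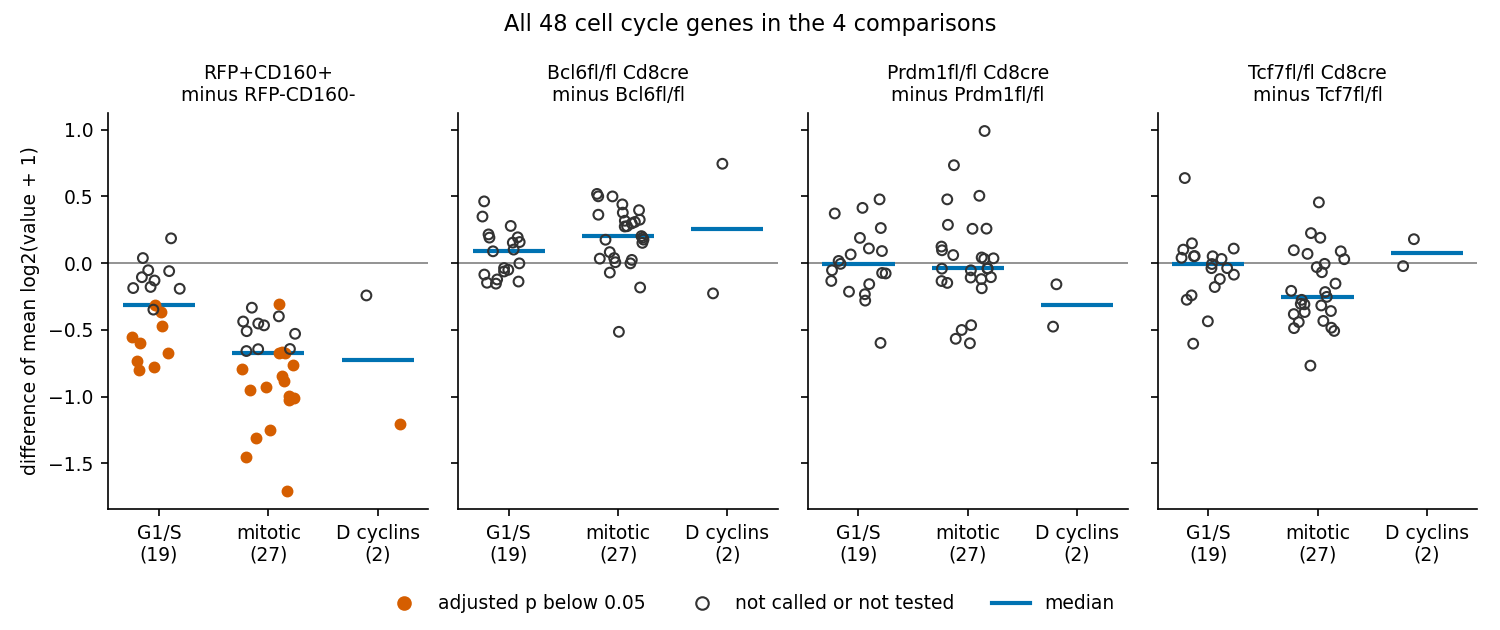
Log2 difference of every gene of the set in each comparison, from the fit without a filter on low values, by phase group, with the median as a line; filled points are called by limma in the filtered fit. In the RFP experiment 27 of 27 mitotic genes are negative, and in the Bcl6, Prdm1 and Tcf7 experiments no gene of the set is called.

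After deletion of Prdm1 the set showed neither a call nor a common direction. Of 46 genes tested, 0 were called by limma, beside 4.29% of 10969 genes called higher and 2.54% lower. At an unadjusted limma p below 0.05, 1 was higher and 4 were lower, beside 1177 higher and 1083 lower of the 10969 genes. The median log2 difference (Prdm1fl/fl Cd8cre minus Prdm1fl/fl, on log2 of signal plus 1, no filter) was -0.01 for the G1/S group and -0.04 for the mitotic group. Non-overlapping genotypes were seen in 7 of 48 genes with the deleted libraries higher and in 14 with them lower, genes below the filter included. Over the 10969 genes that reached the filter, the shares were 21.8% higher and 30.6% lower. In this table and the next, a value is reads divided by a size factor of the library, without gene length, so levels are compared within a gene only.

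Mki67 read 1886 and 1881 units of signal in Prdm1fl/fl and 2069 and 2034 in Prdm1fl/fl Cd8cre libraries (log2 difference 0.12, limma adjusted p 0.51). Top2a read 991 and 1307 against 1065 and 1151, Cdk1 99.3 and 143 against 105 and 128, and Ccnb1, below the filter, 24.8 and 17.3 against 13.8 and 29.1. The last 3 genes overlapped between genotypes. Foxm1 read 245 and 255 against 231 and 220, a small separation of the genotypes. Plk1 had the largest positive difference of the set, at 57.9 and 50.05 against 84.8 and 137 (log2 difference 0.99, SE 0.35, limma adjusted p 0.17). Mad2l1, a spindle checkpoint protein, read 421 and 388 against 283 and 302 (log2 difference -0.47, limma adjusted p 0.16), and Cenpa 4728 and 3671 against 3482 and 2165 (log2 difference -0.60, limma adjusted p 0.20). Both had deleted libraries below the littermates.

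Mcm2 read 2398 and 2771 in littermates and 2541 and 2859 after Prdm1 deletion, Pcna 2121 and 2320 against 2054 and 2149, and E2f1 213 and 276 against 310.4 and 246. All 3 overlapped. Ccne1 read 189 and 274 against 130.3 and 173, lower in both deleted libraries (log2 difference -0.60, SE 0.27, limma adjusted p 0.27). Mcm4 read 3244 and 3185 against 2814 and 2485 (log2 difference -0.28, limma adjusted p 0.18), and Cdt1, the licensing factor that brings MCM to origins, 1311 and 1262 against 1164 and 1027 (log2 difference -0.23, limma adjusted p 0.31). Ccnd2 read 29854 and 29544 against 21972 and 20735. The genotypes were apart by far more than the spread within each, and the log2 difference of -0.48 (SE 0.12) had a limma adjusted p of 0.066. DESeq2 on the recovered reads called it lower (adjusted p 0.001), and edgeR's quasi-likelihood test called no gene of the set. Ccnd3 read 1718 and 2003 against 1709.9 and 1613.

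A few cell cycle genes outside the set were called after Prdm1 deletion. Of 42 further replication factors tested, 1 was higher and 2 were lower. Of 49 further mitotic genes, 0 were higher and 1 lower, and of 13 genes that control CDK activity 1 was higher. Over all genes tested, 4.29% were higher and 2.54% lower, and no list was tested against these shares. Ccnd1, the remaining D-type cyclin, was higher at 130 ± 25 against 44.4 ± 10 (SD, n = 2; limma adjusted p 0.045), and Rfc1 was higher at 4116 ± 306 against 2609 ± 212 (limma adjusted p 0.017). Clspn (576 ± 78 against 1029.9 ± 67, limma adjusted p 0.020), Cdca2 (496 ± 45 against 823 ± 56, 0.028) and Rpa2 (1954 ± 186 against 2826 ± 73, 0.033) were lower. Markers of other cells differed in the same libraries: 8 of 14 epithelial markers and the crypt markers Olfm4 and Smoc2 were called higher, the epithelial sum was 16193 and 16256 against 19908 and 27512, and the crypt sum was 307 and 451 against 2578 and 1949. The part of epithelial RNA in the cell cycle values of this experiment was not tested.

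After deletion of Tcf7 no gene of the set was called. Of 46 genes tested, 0 were called by limma, beside 1.49% of 15210 genes called higher and 1.23% lower. At an unadjusted limma p below 0.05, 4 were higher and 6 lower, beside 940 higher and 969 lower of the 15210 genes. The median log2 difference (Tcf7fl/fl Cd8cre minus Tcf7fl/fl, no filter) was -0.25 for the mitotic group, negative in 20 of 27, and -0.01 for the G1/S group, negative in 10 of 19, beside 0.00 over all genes. Both deleted libraries were below both littermates for 12 of 27 mitotic and 4 of 19 G1/S genes, and above for 7 of the 48, genes below the filter included. Over the 15210 genes that reached the filter, the shares were 20.7% below and 20.9% above.

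Mki67 read 1672 and 1997 units of signal in Tcf7fl/fl and 1524 and 1496 in Tcf7fl/fl Cd8cre libraries (log2 difference -0.28, SE 0.09, limma adjusted p 0.17), and Top2a 1229.6 and 1354 against 1025 and 1062 (log2 difference -0.31, SE 0.09, limma adjusted p 0.12). Kif23, a motor of cytokinesis, read 199.8 and 261 against 111 and 159.97 (log2 difference -0.77, limma adjusted p 0.15). In all 3 genes both deleted libraries were below both littermates. Leaving out 1 library, the log2 difference ran from -0.40 to -0.15 (Mki67) and from -0.38 to -0.24 (Top2a). The most negative values came without Tcf7fl/fl library 1, which leaves 1 littermate library, and Kif23 was -0.96 there. Cenpa went the other way, at 1731 and 1771 against 1998 and 2094 (log2 difference 0.22, limma adjusted p 0.16). Cdk1 read 146 and 183 against 142 and 170, Ccnb1 38.1 and 40.9 against 16.9 and 57.7, and Plk1 210.3 and 134 against 166 and 110, each with overlap. Foxm1 read 337 and 359 against 319 and 266, lower in both deleted libraries.

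Mcm2 read 3250 and 3134 in littermates and 3380 and 3500 after Tcf7 deletion, without overlap, at a log2 difference of 0.11 (limma adjusted p 0.52). Pcna (1735 and 1901 against 1966 and 1799), Ccne1 (284 and 276 against 348 and 258) and E2f1 (359 and 354 against 394 and 341) overlapped. The G1/S genes with the smallest p were Gins2, a subunit of the replicative helicase complex (97.1 and 71.8 against 141 and 120, limma adjusted p 0.36), Mcm4 (2853 and 2663 against 3086 and 3022, 0.36) and Mcm7 (736 and 709 against 654 and 570, 0.42). The genotypes were apart in each, with Mcm7 lower after deletion. Ccnd2 read 28857 and 30739 against 32652 and 34792 (log2 difference 0.18, SE 0.05, limma adjusted p 0.10), and its log2 difference ran from 0.13 to 0.22 when 1 library was left out. Ccnd3 read 2633 and 2734 against 2757 and 2527, with overlap. No gene of the other cell cycle lists was called. The mitotic sum without Cenpa was 7447 and 7774 against 6442 and 6412, while the crypt marker sum was 996 and 999 against 1379 and 1392, the epithelial sum was 26777 and 26695 against 33484 and 32744, and 4 of 14 epithelial markers were called higher. Also called higher were the crypt marker Olfm4 (0.49, limma adjusted p 0.0075), the erythroid Hbb-bs (1.05, 0.015) and Hba-a1 (0.92, 0.017), Cd5 of conventional T cells (1.60, 0.0016) and the myeloid Itgam (0.63, 2.2e-05). Of 5 conventional T cell markers tested, 3 had positive and 2 negative log2 differences, and Cd5 was the only 1 called. Of 3 myeloid markers tested, 3 were positive and 1 was called. The part of these cells in the values of this experiment was not tested.

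The Prdm1 and Tcf7 effects, both on the signal scale, could be set against each other in a single limma fit over their 8 libraries. Of 45 genes of the set tested, 2 were called lower (a lower Prdm1 than Tcf7 effect) and 0 higher, beside 4.28% of 10841 genes called lower and 5.19% higher. Ccnd2 was 29699 ± 219 in Prdm1fl/fl and 21353 ± 875 in Prdm1fl/fl Cd8cre libraries, and 29798 ± 1330 in Tcf7fl/fl and 33722 ± 1513 in Tcf7fl/fl Cd8cre libraries (SD, n = 2). The effects pointed in opposite directions and differed by -0.66 on the log2 scale (SE 0.11, limma adjusted p 0.0059). Leaving out Tcf7fl/fl Cd8cre library 2 raised this p to 0.057. Mcm4, with Prdm1 and Tcf7 effects of -0.28 and 0.15, differed by -0.43 (SE 0.12, limma adjusted p 0.049), a call kept in 4 of 12 alternatives (range of adjusted p 0.0079 to 0.19). In the other cell cycle lists, Rfc1 (0.91, limma adjusted p 0.0021), Smc4 (0.56, 0.013) and Brca2 (0.75, 0.047) had the higher Prdm1 effect, and Clspn (-0.90, 0.0087), Rpa2 (-0.53, 0.021) and Pole2 (-0.81, 0.049) the lower. By list, 1 was higher and 3 lower of 42 further replication factors tested. Another 1 was higher of 49 further mitotic genes and 1 of 13 checkpoint genes, beside 5.19% higher and 4.28% lower over all genes. The epithelial and crypt marker sums given above were also higher in the deleted libraries of both experiments, and their part in these differences was not tested.

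**Figure D5:**
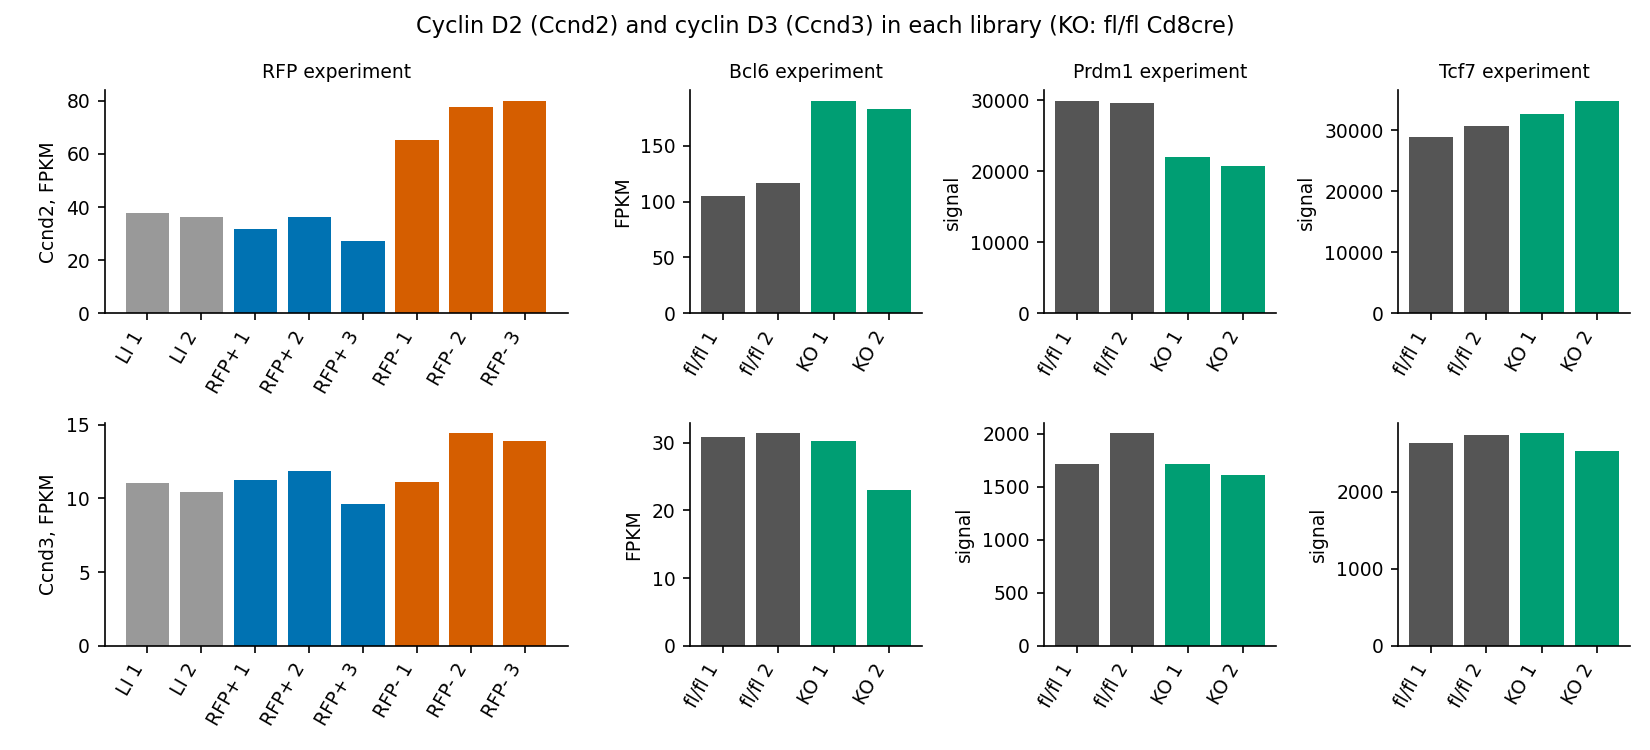
Level of Ccnd2 and Ccnd3 in each library of the 4 experiments (bars from 0; KO is fl/fl Cd8cre; FPKM in the RFP and Bcl6 experiments, size-factor-scaled signal in the Prdm1 and Tcf7 experiments; separate axes). Ccnd2 is lower in RFP+CD160+ than in RFP-CD160- libraries (27.2 to 36.2 against 65.3 to 79.8 FPKM), and its Prdm1 and Tcf7 differences point in opposite directions.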

How the data were processed

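The data are 20 bulk RNA-seq libraries of sorted IELs. Per the labels' protocols, RNA was extracted with MagZol. Per the submitters' processing notes, Trim Galore 0.4.4, Bowtie2, featureCounts, Subread, RSEM, DESeq2 and mm10 were used, in roles that the notes do not give. The RFP, LI and Bcl6 values were deposited by the authors as FPKM. Under the same name, the authors deposited for Prdm1 and Tcf7 a gene signal without length scaling, reads divided by 1 size factor per library, so thresholds planned for FPKM were replaced there by thresholds on signal. Reads recovered from these values were used for depth, and for a count test in the Prdm1 experiment only. All columns of values were used (0 left out).

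Each experiment was fitted alone with limma 3.58.1 (R 4.3.3; eBayes with a mean-variance trend, two-sided) on log2(value + 1), over genes with at least 1 FPKM or 50 units of signal in at least n libraries, n being the size of the smaller group. P-values were adjusted by Benjamini-Hochberg over all genes tested, and called means an adjusted p below 0.05. The fits were tested on simulated data. The 48 genes and the other lists were chosen with earlier results of these data known. Per-library values are given for 12 fixed genes in every experiment, for up to 6 called genes per phase group by smallest p (3 where fewer than 3 were called), for up to 3 called genes of each other cell cycle list, and for Bcl6, Prdm1, Tcf7 and Cd160 as checks; further genes were named after their values were seen. Cd160 read 231 to 242 FPKM in RFP+CD160+ and 61.9 to 69.8 in RFP-CD160- libraries. Alternatives were other pseudocounts, filters and scalings, no trend, the replicate number as a block, leaving out each library, and edgeR 4.0.16 and DESeq2 1.42.0 for Prdm1.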

Additional observations from a re-analysis of the deposited data

Results flagged for a closer look

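The effects of Prdm1 and Tcf7 deletion on Ccnd2 differed in a direct test over the 8 libraries of both experiments: the Prdm1 effect minus the Tcf7 effect was -0.66 on the log2 scale (SE 0.11, limma adjusted p 0.0059, 2 libraries per genotype). The effect was -0.48 in the Prdm1 experiment and 0.18 in the Tcf7 experiment, and neither passed its own test. Mcm4 met the same test at -0.43 (SE 0.12, limma adjusted p 0.049), from effects of -0.28 and 0.15. These were 2 of 45 genes of the set tested, with 0 called higher. Over all 10841 genes tested, a similar share was called lower (4.28%), and 5.19% were called higher. Over 12 alternatives, Ccnd2 was called in 11 (adjusted p 7.3e-05 to 0.057) and Mcm4 in 4 (adjusted p 0.0079 to 0.19).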

How the results depend on the processing

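In the RFP experiment, all 27 called genes of the set kept their direction, and 17 were called, in every alternative in which they were tested (13, or 12 for Cdc6, Ncapg and Prc1). The number of the set called lower was between 17 and 29 when 1 library was left out, beside 1531 to 1959 lower over all genes tested. The fits that left out 1 library used the filter of 1 FPKM, so their counts favour a difference. In the Bcl6 experiment, leaving out 1 library gave 0 to 3 genes of the set called higher and 0 to 1 lower; over all genes, 3 higher and 37 lower became 730 and 832 without deleted library 1, 68 and 131 without deleted library 2, and 14 higher without littermate library 2; 24 were lower with no filter. In the Prdm1 experiment, leaving out 1 library gave 0 to 1 higher and 0 to 2 lower, and DESeq2 called 1 lower (Ccnd2); over all genes, 471 higher and 279 lower became 778 higher with DESeq2, 143 lower without the trend, and 721 and 534 without littermate library 2. In the Tcf7 experiment, quantile normalization called 1 higher (Ccnd2), and leaving out 1 library gave 0 to 1 higher and 0 to 3 lower; over all genes, 226 higher and 187 lower became 6 and 3 without the trend, and 123 to 399 and 120.0 to 357 without 1 library. For the Prdm1 minus Tcf7 effect, a filter of 5 and rescaled totals each left 1 lower, and leaving out 1 library gave 0 to 1 higher and 0 to 3 lower; over all genes, 563 higher and 464 lower became 257 to 770 and 205 to 712 without 1 library, and 700.0 and 359 with rescaled totals. The cause of these changes was not tested.

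The labels do not say that replicate numbers pair libraries, and same-numbered libraries correlated at -0.23, -0.00027 and -0.33 in the RFP experiment, -0.46 (Bcl6), 0.53 (Prdm1) and 0.06 (Tcf7), so pairing was not established. With the replicate number as a block, 26 genes of the set were lower in the RFP experiment, beside 1297 higher and 1695 lower over all 9717 genes tested. After Prdm1 deletion the block gave 4 lower (Ccnd2, Cenpa, Kif11, Mcm4). After Tcf7 deletion the block gave 2 higher (Ccnd2, Cenpa) and 3 lower (Kif23, Mki67, Top2a). For the Prdm1 minus Tcf7 effect the block gave 2 higher (Mki67, Plk1) and 3 lower (Ccnd2, Cenpa, Mcm4). Over all genes the block gave 14 higher and 64 lower (Bcl6), 1210 and 1176 (Prdm1), 495 and 482 (Tcf7) and 1076 and 1173 (difference).

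Uncalled genes changed sign. After Prdm1 deletion, Top2a was 0.036 with rescaled totals and 0.015 with quantile normalization, and Cdk1 0.033 with rescaled totals. Leaving out 1 library, the log2 difference ran from -0.33 to 0.023 (E2f1), -0.34 to 0.17 (Mcm2) and -0.11 to 0.037 (Pcna) for Bcl6; from -0.040 to 0.17 (Mcm2), -0.24 to 0.16 (Top2a) and -0.30 to 0.22 (Cdk1) for Prdm1; and from -0.11 to 0.31 (Ccne1), -0.065 to 0.14 (E2f1), -0.015 to 0.12 (Pcna), -0.23 to 0.10 (Cdk1), -0.63 to 0.016 (Plk1) and -0.086 to 0.039 (Ccnd3) for Tcf7. With 2 libraries per genotype, a lone library left in an arm was assumed to vary like the others. Depth limits the lowest mitotic genes, whose smallest read counts were 8 to 15 in the RFP+CD160+ libraries. Count tests were not run for Tcf7, and no outlier test applies to groups of 2 or 3.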
